A study of Drosophila melanogaster with 9 samples.

Results

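The 31 genes described here are those that the authors labelled as cytoskeleton among the 904 genes in their 4 deposited tables of genes changed by Blimp-1. The label was read from the first table that held the gene, and 6 genes with it (Root, CG3339, sls, Zasp52, Zasp66 and Strn-Mlck) were left out. In Drosophila melanogaster, pupal retinas were dissected along with the optic lobes at 48 h after puparium formation (APF, at 25 °C), and their RNA was sequenced. There were 3 groups of 3 biological replicates, and every animal carried the lGMR-GAL4 driver, which is active in the developing eye, whereas the samples also held optic lobe cells. Control animals had the driver alone, lGMR GAL4/+, with no UAS construct named. Blimp-1 was targeted for depletion in lGMR GAL4>Blimp-1 RNAi and supplied in excess in lGMR GAL4>UAS Blimp-1, here called RNAi and overexpression. Both were compared with the same 3 control libraries to ask which genes depend on the level of this zinc finger repressor, a product of the response to the moulting hormone ecdysone.

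The cytoskeleton gives a cell its shape through actin filaments and microtubules. Actin is nucleated by formins and the Arp2/3 complex, cut and capped by gelsolin, tied into bundles or networks by villin and filamin family proteins, and moved along by myosins. Microtubules are built from tubulin dimers and serve as tracks for kinesins, as the centriole's wall and as the mitotic spindle. In the pupal eye, actin supports the growing rhabdomeres (the stacked light-sensing membrane of photoreceptors), the shape of cone and pigment cells, and the eye bristles.

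Values are normalized read counts, meaning reads per gene divided by 1 size factor per library, given as mean ± SD with n = 3. A gene is called listed where the authors' table held it. In the authors' test against control, each had changed by 1 or more on the log2 scale, up or down, with an adjusted p below 0.05. Because the tables hold only such genes, the fall or rise of a listed gene is the criterion of its listing and not a separate finding. A gene listed for 1 genotype alone has no value in the other. Reads in listed genes numbered 1189615 to 2306340 in the control libraries, over 904 genes. They numbered 954516 to 1318419 in RNAi over 373 genes, and 1322202 to 1918155 in overexpression over 710 genes. As these gene sets differ, the sums do not compare depth between groups. Blimp-1 itself was listed for overexpression alone, with 874, 888 and 748 normalized counts in control and 23252, 9467 and 18277 in overexpression. It was not listed for RNAi, so a fall of its RNA past the authors' thresholds was not shown, and its level there is not known here. The photoreceptor gene chp had 25179 to 28494 normalized counts in the control libraries and 8467 to 17427 in the RNAi libraries, where it was listed as 2.2596-fold lower. The neuronal marker elav and the glial marker repo had no entry, so the optic lobe share of the tissue could not be checked with them. The p-values weigh a difference against the spread between biological replicates. In the direct comparison of overexpression with RNAi, that spread was estimated from all 9 libraries with information shared between genes. Since whole tissue was sequenced, fewer cells of a type and less RNA per cell cannot be told apart.

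In RNAi, 14 of the 15 listed cytoskeletal genes were lower and 1 was higher. Among all 373 genes listed for RNAi, 50.7% were lower and 49.3% higher. The falls were modest: from 2.08-fold in the formin gene Frl to 4.26-fold in CG2157, with a median absolute log2 ratio of 1.22 against 1.71 over all 189 lower genes. Markers of several cell types were also listed for RNAi. The photoreceptor list had 1 of 15 listed (chp, lower). The cone and pigment cell list had 5 of 14, with st, cn and cd lower and Pu and h higher. The sum of these 5 went from 26171 to 29310 normalized counts in control to 8271 to 9376 in RNAi. Its fall came mostly from cd (mean 16805 to 5460) and st (7163 to 1372). The sum therefore does not stand for Pu (536 to 1208) and h (53.9 to 128). The ciliated sensory neuron list had 2 of 16, both lower (337 to 494 in control, 64.3 to 103.7 in RNAi). The tracheal list had 2 of 7, both higher (20713 to 31607 in control, 50781 to 64153 in RNAi). These were Gasp and verm, which the authors labelled as cuticle protein and enzyme. The genes trh and btl of that list had no entry, so its sum does not stand for tracheal RNA. Of the muscle list 2 of 18 were listed, sls lower and Zasp52 higher, and of the hemocyte list 1 of 14, Ppn, which was lower. No marker of the glial or neuronal lists was listed. The part of these cells in the lower cytoskeletal genes was not tested.

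In overexpression the 21 listed cytoskeletal genes split into 13 higher and 8 lower, where 72.4% of all 710 listed genes were higher and 27.6% lower. The median absolute log2 ratio was 2.08 for the 13 higher genes (2.07 over all 514) and 1.71 for the 8 lower genes (1.66 over all 196). Libraries of control and altered animals did not overlap for any of the 15 and 21 genes. That was true of 100.0% of the genes listed for RNAi and 99.7% of those listed for overexpression, so it follows from the listing.

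**Figure D1:**
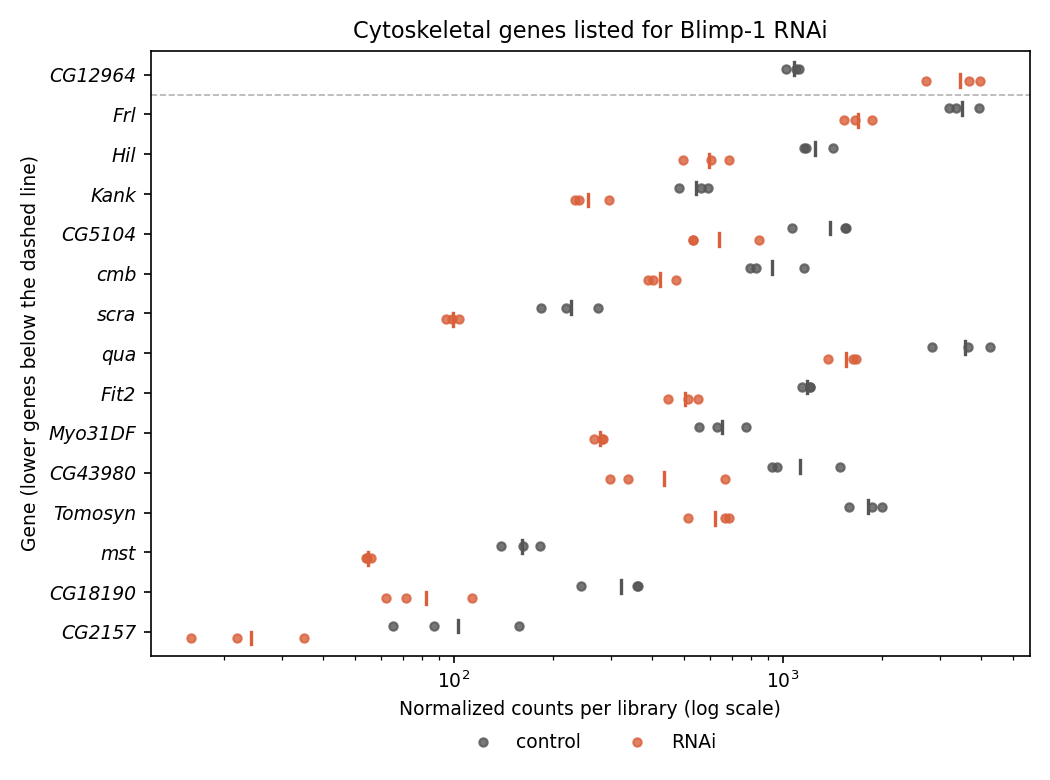
Normalized counts (log axis) of the 15 cytoskeletal genes listed for Blimp-1 RNAi; each point is 1 library and each vertical bar a group mean of 3 libraries. The 14 genes below the dashed line were lower in RNAi, and CG12964 alone was higher.

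The plot of RNAi libraries shows the genes ordered by fold. The gap between groups was narrow for CG5104, whose highest RNAi library had 847 normalized counts and whose lowest control library had 1067. It was wide for mst, where the RNAi libraries lay close together.

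Only 5 cytoskeletal genes were listed in both comparisons, and these have values in all 9 libraries. Of these, qua, Frl and Myo31DF were lower in both altered genotypes, while CG5104 and CG2157 were lower in RNAi and higher in overexpression. Among the 179 genes listed in both comparisons, 34.1% were lower in both and 15.1% showed the second pattern. As the comparisons share their control libraries, the values are set side by side here and no overlap was tested. Overexpression was instead compared with RNAi directly, with limma over all 179 genes, where 63.7% had an adjusted p under 0.05 (37.4% higher and 26.3% lower in overexpression).

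The gene qua encodes quail, a villin-like protein that bundles actin filaments in the nurse cells of the ovary. Its libraries held 2845, 4253 and 3656 normalized counts in control, 1668, 1369 and 1638 in RNAi and 763, 782 and 1087 in overexpression. All RNAi libraries were below all control libraries, and all overexpression libraries were below all RNAi libraries. From 3585 ± 707 in control, qua was 2.30-fold lower in RNAi at 1558 ± 164 and 4.08-fold lower in overexpression at 878 ± 182 (SD, n = 3). For qua, the authors' deposited table gave adjusted p-values of 4.81e-08 in RNAi and 6.49e-14 in overexpression. Directly compared, overexpression was lower than RNAi by a log2 difference of -0.84 (95% interval -1.37 to -0.31), with a limma adjusted p of 0.00674. All 3 overexpression libraries showed this direction. The order of levels was thus control, RNAi, overexpression. The separation from control follows from the listing, whereas the step from RNAi to overexpression did not have to, and it was beyond the spread of the libraries.

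Frl encodes a formin of the FRL family, proteins that nucleate and elongate unbranched actin filaments. It had 3954, 3350 and 3198 normalized counts in control, 1869.7, 1529 and 1661 in RNAi and 1624, 975 and 1635 in overexpression. The altered libraries of both kinds were below every control library, and they overlapped each other. The mean of 3501 ± 399 in control was 2.08-fold above that of RNAi (1687 ± 172) and 2.48-fold above that of overexpression (1411 ± 378; SD, n = 3). Between the altered genotypes the log2 difference was -0.29 (95% interval -0.83 to 0.25; limma adjusted p = 0.336), so a difference was not shown.

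Myo31DF encodes an unconventional class I myosin known for setting the left-right asymmetry of the gut and genitalia. Its control libraries had 773, 556 and 629 normalized counts, the RNAi libraries 284.5, 266 and 282, and the overexpression libraries 272, 165 and 302. The RNAi libraries lay within a far narrower range than the overexpression libraries, and the 2 ranges overlapped. Means were 653 ± 111 in control, 278 ± 10.2 in RNAi (2.35-fold lower) and 246 ± 72.4 in overexpression (2.65-fold lower; SD, n = 3). The log2 difference between overexpression and RNAi was -0.22 (95% interval -0.80 to 0.36; limma adjusted p = 0.506), and without overexpression replicate 2 it was 0.048.

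CG5104 and CG2157 went opposite ways, and their direct difference is given without a test because genes listed with opposite directions had to differ. CG5104 had 1067, 1559 and 1547 normalized counts in control, 534, 847 and 531 in RNAi and 2810.2, 4602 and 2720.2 in overexpression. The 3 groups did not overlap, and replicate 2 was highest in each. Means were 1391 ± 281, 637 ± 182 and 3377 ± 1061, or 2.182-fold lower in RNAi and 2.43-fold higher in overexpression (SD, n = 3). CG2157 had 86.7, 65.3 and 157 normalized counts in control, 15.8, 21.85 and 34.9 in RNAi and 256, 392 and 285 in overexpression. Again no library of a group reached into another group, although 17, 18 and 41 reads in RNAi make that level imprecise. The control mean of 103 ± 48.1 fell 4.26-fold to 24.2 ± 9.74 in RNAi and rose 3.02-fold to 311 ± 71.5 in overexpression (SD, n = 3). The authors' tables for overexpression labelled CG5104 as protein trafficking and CG2157 as unknown, so their cytoskeletal label rests on the RNAi tables alone.

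**Figure D2:**
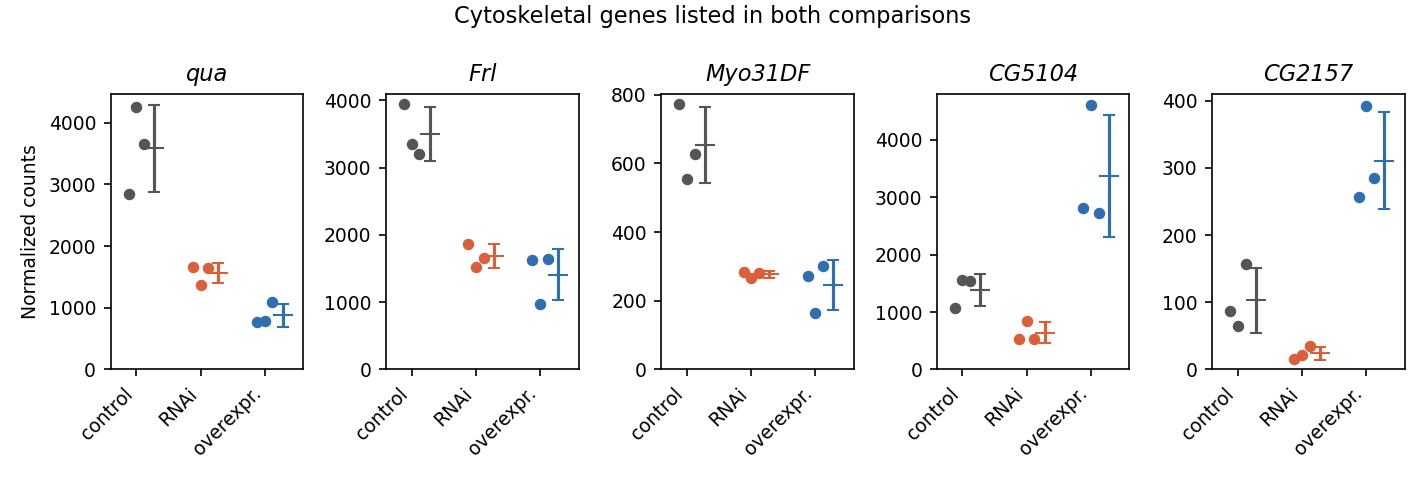
Normalized counts of the 5 cytoskeletal genes listed in both comparisons, in 3 control, 3 RNAi and 3 overexpression libraries (points), with mean and SD beside them. Levels of qua, Frl and Myo31DF were below control in both altered genotypes, and CG5104 and CG2157 were below control in RNAi and above it in overexpression.

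As the panels for these 5 genes show, qua alone of the 3 falling genes was separated between the altered genotypes.

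Other actin regulators were listed in 1 genotype only, 4 of them higher in overexpression. Gel encodes gelsolin, which severs and caps actin filaments under the control of calcium. It had 1540.4, 1692 and 1806 normalized counts in control and 8038, 8514 and 7277 in overexpression. With all libraries of each group close together, Gel was 4.73-fold higher, from 1679.5 ± 133 to 7943 ± 624 (SD, n = 3), with an adjusted p of 4.23e-29 in the authors' deposited table.

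The gene cher encodes filamin, a long protein that crosslinks actin and links it to the membrane. Its control libraries were nearly equal, at 241, 226 and 232 normalized counts, while the overexpression libraries had 2306, 811 and 1776. The lowest overexpression library was still well above the control libraries, and cher was 7.0-fold higher, from 233 ± 7.87 to 1631 ± 758 (SD, n = 3). For mwh (multiple wing hairs), whose product holds back surplus actin-rich prehairs in wing cells, the values were 513, 437 and 503 in control and 2654, 1067 and 2349 in overexpression. This gene was 4.18-fold higher, from 484 ± 41.5 to 2023 ± 842 (SD, n = 3), again with replicate 2 as the lowest of the altered libraries. Arpc3B, a second gene for a subunit of the actin-branching Arp2/3 complex, rested on few reads: 7, 11 and 8 in control and 24, 41 and 39 in overexpression. Its level was 4.52-fold higher, at 38.0 ± 15.3 normalized counts against 8.41 ± 3.23 (SD, n = 3). The sources used here do not say how reads shared with its close relative Arpc3A were counted.

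The bristle gene jv (javelin), needed for the parallel actin bundles of bristles, was lower in overexpression. It had 371, 455 and 379 normalized counts in control and 144, 54.9 and 154 in overexpression, a 3.41-fold fall from 402 ± 46.3 to 118 ± 54.6 (SD, n = 3). In RNAi, the planar polarity gene cmb (combover), which acts in wing hair formation, was lower. It had 1158, 794 and 829.5 normalized counts in control and 473, 403 and 388 in RNAi, 2.20-fold lower at 421 ± 45.6 against 927 ± 200.525 (SD, n = 3). Of the genes grouped here as actin regulators, 4 were listed as higher and 3 as lower in overexpression, where 72.4% of all listed genes were higher. The 3 in RNAi were lower, as were 50.7% of all listed genes.

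Of the myosin genes, Myo61F was listed with a rise in overexpression, opposite to Myo31DF in the same libraries. Both encode class I myosins, single-headed motors that bind membranes. Myo61F had 104.1, 72.0 and 101 normalized counts in control and 1123, 477 and 913 in overexpression. It was 9.07-fold higher, from 92.4 ± 17.7 to 838 ± 329.5 (SD, n = 3), with an adjusted p of 3.09e-17 in the authors' deposited table. In control, Myo31DF had 151 normalized counts per kb of exon against 23.4 for Myo61F, and in overexpression 57.1 against 212, so the order of their levels per length was turned around. Myo61F and mwh lie 85.8 kb apart on chromosome 3L (dm6, mwh at 1200786 to 1232700, Myo61F at 1318480 to 1329617), the closest pair among the 31 genes.

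The 3 genes grouped here under adhesion and cortex, Fit2, Kank and CAP, were each listed as lower in 1 genotype. Fit2 encodes a kindlin, which helps talin to activate integrins. It had 1143, 1205 and 1210 normalized counts in control and 446, 515 and 554 in RNAi, 2.35-fold lower at 505 ± 54.3 against 1186 ± 37.2 (SD, n = 3). Kank belongs to a family that, in mammals, couples integrin adhesions to cortical microtubules. With 591, 563 and 483 normalized counts in control and 239.9, 233 and 295 in RNAi, Kank was 2.13-fold lower, from 546 ± 56.3 to 256 ± 34.0 (SD, n = 3). CAP, a vinexin family adaptor found with the cytoskeleton at adhesions, was listed for overexpression. Its values were 3412, 2404 and 2447 in control and 1090.4, 709 and 974 in overexpression, 2.98-fold lower at 925 ± 195 against 2754 ± 569.9 (SD, n = 3). Control replicate 1 had the highest CAP value and overexpression replicate 2 the lowest.

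Microtubule genes went both ways in overexpression. The tubulin isotype gene betaTub60D, known as a developmentally regulated form in muscle and other differentiating cells, had 2086, 3560.3 and 3139 normalized counts in control and 7603, 6288 and 6432 in overexpression. It was 2.31-fold higher, from 2928 ± 759 to 6774 ± 721 (SD, n = 3), and reads shared with other beta-tubulin genes may have been split. The kinesin gene Kif3C fell from 41, 24 and 31 reads in control to 4, 3 and 9 reads in overexpression. Its 5.36-fold fall, from 29.7 ± 8.05 to 5.55 ± 3.15 normalized counts (SD, n = 3), is imprecise at this depth, and 25.9% of its exon bases are shared with an annotated transposon copy. In RNAi, mst (misato), needed for assembly of spindle microtubules, had 53.9, 55.8 and 54.4 normalized counts against 182, 162 and 138 in control. Its fall of 2.94-fold, from 161 ± 21.8 to 54.7 ± 0.986 (SD, n = 3), came with the tightest RNAi libraries of the 15 genes.

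Genes of the centriole, kinetochore and contractile ring also split. Cp110, whose product caps centrioles, had 104.1, 112 and 107 normalized counts in control and 405, 321 and 388 in overexpression, 3.44-fold higher at 372 ± 44.3 against 108 ± 4.11 (SD, n = 3). Nuf2, a subunit of the Ndc80 complex that joins kinetochores to microtubules, had 7.39, 15.35 and 3.74 in control and 77.4, 139 and 129 in overexpression. Nuf2 was 13.0-fold higher, from 8.83 ± 5.94 to 115.05 ± 33.0 (SD, n = 3), and 20.7-fold higher without control replicate 2, which held the most of its few control reads. Mis12, from another part of the same kinetochore assembly, was lower instead. Its control libraries had 314, 392 and 380.5 normalized counts and its overexpression libraries 76.5, 158 and 93.9, a 3.31-fold fall from 362 ± 41.7 to 109.55 ± 43.0 (SD, n = 3). The kinetochore genes therefore did not move together. In RNAi, scra, which encodes the contractile ring scaffold anillin, had 94.8, 98.3 and 103.7 normalized counts against 275, 184 and 219.55 in control, 2.29-fold lower at 98.96 ± 4.49 against 226 ± 45.6 (SD, n = 3).

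The genes known from muscle thin filaments were few and opposite in overexpression. The gene sals acts in lengthening sarcomeric actin filaments and had 45.7, 95.0 and 107 normalized counts in control and 371, 397 and 284 in overexpression. It was 4.24-fold higher, from 82.7 ± 32.6 to 350.5 ± 59.1 (SD, n = 3). TpnC25D, a troponin C gene, had 42.3, 88.3 and 64.9 in control and 9.11, 38.3 and 13.3 in overexpression. Its groups came closest to overlapping of all entries, and its fall of 3.22-fold (65.2 ± 23.0 to 20.2 ± 15.8; SD, n = 3) became 5.82-fold without overexpression replicate 2. The adjusted p of TpnC25D in the authors' deposited table was 0.0336, the weakest of the 31 genes. Of 18 muscle markers examined, 1 was listed for overexpression (Zasp66, 3.36 to 17.27 normalized counts in control and 68.9 to 143 in overexpression). No other muscle marker was listed for overexpression, and the part of muscle RNA in the values of sals and TpnC25D was not tested.

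Tomosyn carries the cytoskeletal label, although its product is known for binding SNARE proteins and restraining vesicle fusion at synapses. It had 2003, 1584 and 1862 normalized counts in control and 667, 516 and 686 in RNAi. At 623 ± 93.2 against 1817 ± 213 it was 2.92-fold lower (SD, n = 3), and its adjusted p of 7.59e-15 in the authors' deposited table was the smallest among the 14 lower genes.

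The remaining genes, Hil and 5 named by CG number alone, have roles that are left unstated here. CG18190 was 3.91-fold lower in RNAi, with 243, 363 and 361 normalized counts in control and 62.3, 71.6 and 113 in RNAi. CG43980 was 2.59-fold lower, with 1489, 925 and 958 in control and 668, 297 and 338 in RNAi, where replicate 1 was the highest in both groups. Hil was 2.11-fold lower, at 595 ± 94.7 against 1254 ± 147 (SD, n = 3). The single cytoskeletal gene above control in RNAi was CG12964. With 1094, 1022 and 1115 normalized counts in control and 3978, 2718 and 3676 in RNAi, it was 3.21-fold higher at 3457 ± 658 against 1077 ± 48.9 (SD, n = 3; adjusted p = 5.64e-18 in the authors' deposited table). In overexpression, CG13502 showed the largest fold of all 31 genes, with 6, 2 and 1 reads in control and 106, 89 and 60 in overexpression. That is 37.7-fold, from 2.40 ± 1.45 to 90.5 ± 26.7 normalized counts (SD, n = 3), or 57.1-fold without control replicate 1. CG3630 rose 4.0-fold, from 328, 338 and 283 normalized counts to 1803, 828 and 1169.

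**Figure D3:**
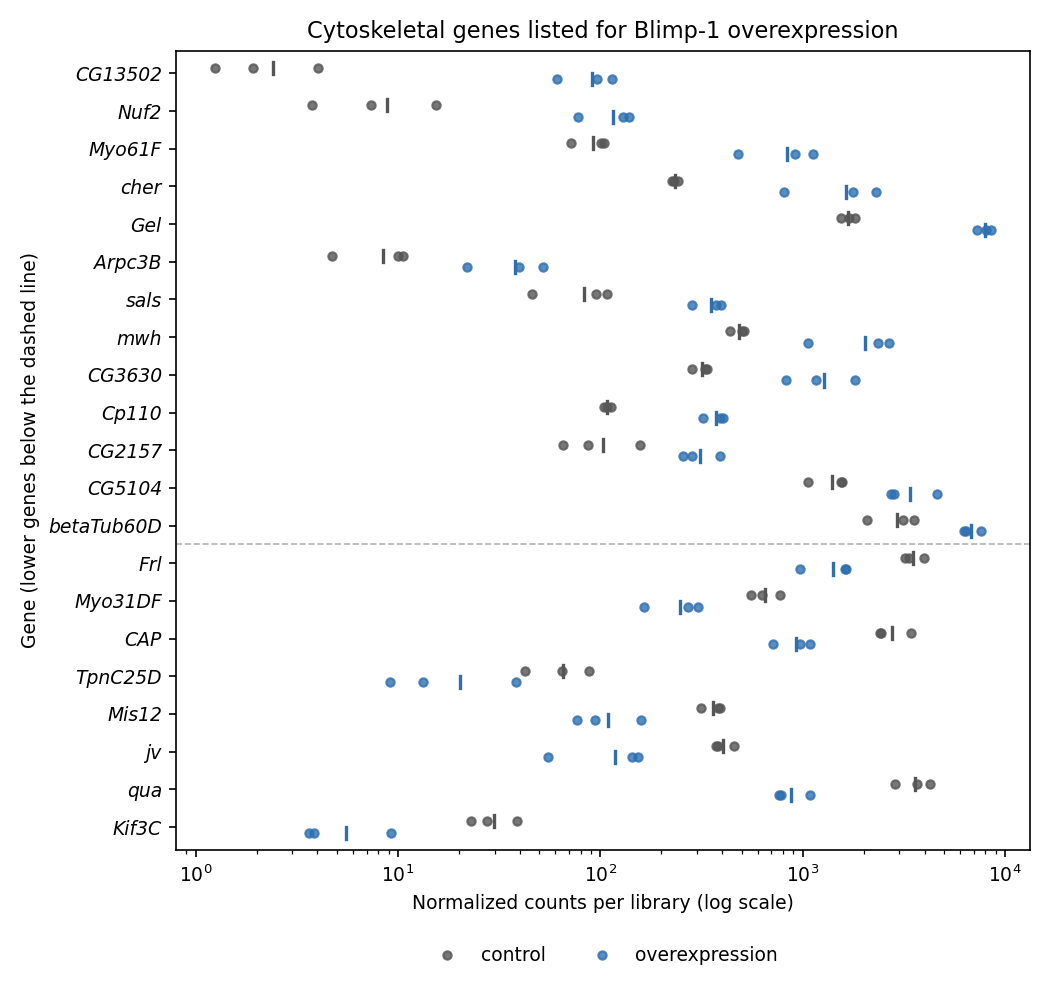
Normalized counts (log axis) of the 21 cytoskeletal genes listed for Blimp-1 overexpression; each point is 1 library and each vertical bar a group mean of 3 libraries. Above the dashed line are 13 higher genes, from betaTub60D (2.31-fold) to CG13502 (37.7-fold), and below it 8 lower genes, from Frl (2.48-fold) to Kif3C (5.36-fold).

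In the plot of overexpression libraries the 13 higher genes cover the whole range of levels. Compared per kb of exon, the control levels of the 31 genes ran from 1.37 normalized counts per kb in CG13502 to 1767 in CG5104. After CG5104 came betaTub60D at 1163 ± 302, qua at 945 ± 186 and Frl at 568 ± 64.8 normalized counts per kb (SD, n = 3). Control libraries of CG5104 and betaTub60D, of betaTub60D and qua, and of Frl and Gel (497 ± 39.5) overlapped on this scale, while those of qua and Frl did not. In overexpression the order began with CG5104 (4291 ± 1348), betaTub60D (2690.4 ± 286) and Gel (2353 ± 185), and qua (231 ± 48.0) and Frl (229 ± 61.3) overlapped.

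The overexpression libraries differed among themselves. Blimp-1 was lowest in replicate 2, at 0.456 of the mean of replicates 1 and 3. Among the 13 higher genes it was lowest in 6, with ratios of 0.398 in cher, 0.426 in mwh, 0.469 in Myo61F, 0.557 in CG3630, 0.810 in Cp110 and 0.896 in betaTub60D. The other 7 higher genes were instead highest in replicate 2, with ratios from 1.11 in Gel to 1.70 in Arpc3B, as were 59.3% of all 514 higher genes. Among the 8 lower genes replicate 2 was lowest in 4, with ratios of 0.368 in jv, 0.573 in Myo31DF, 0.598 in Frl and 0.687 in CAP. Replicate 2 was thus the lowest library for 10 of the 21 genes, where 33.0% of all listed genes had their lowest value in it (23.5% of all higher and 57.7% of all lower genes). RNAi replicate 2 was lowest for 8 of the 15 genes listed for RNAi, against 33.2% of all listed genes (38.6% of all lower and 27.7% of all higher genes). The part of the Blimp-1 level in this spread was not tested.

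**Figure D4:**
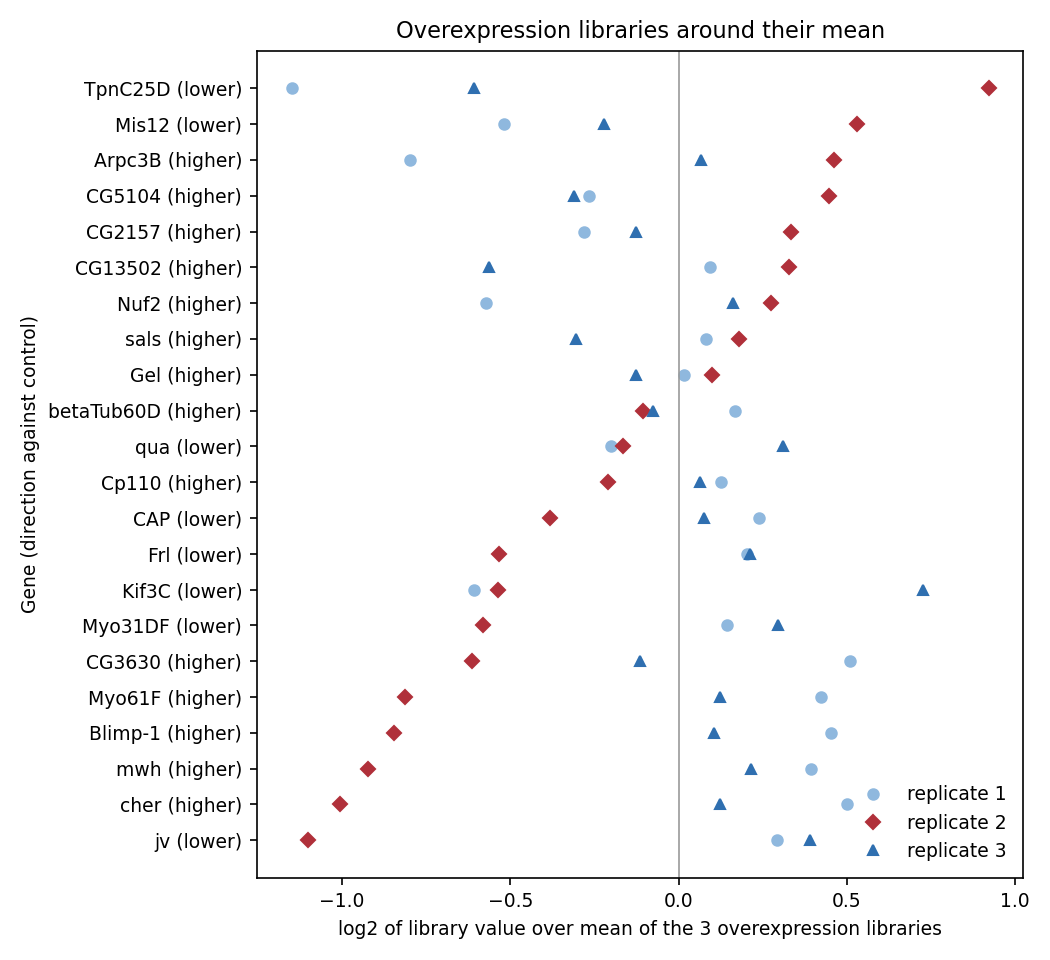
Each overexpression library's normalized count relative to the mean of the 3 overexpression libraries (log2 axis) for the 21 cytoskeletal genes and Blimp-1, ordered by replicate 2. Replicate 2 was lowest for jv, cher, mwh, Blimp-1, Myo61F and CG3630 and highest for TpnC25D, Mis12 and Arpc3B.

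The plot of the overexpression libraries orders genes by replicate 2, and Blimp-1 stands between mwh and Myo61F in it.

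Deposited annotation of the cytoskeletal genes was compared with that of all listed genes as a description. In the RNAi tables, 5 of the 14 lower genes had a mark for a Blimp-1 site (35.7%, against 41.3% of all 189 lower genes), namely CG2157, CG43980, Myo31DF, qua and Hil. Marks for sites of Slbo, a C/EBP transcription factor, stood beside 5 of the 14 (35.7% against 31.2%). The higher gene CG12964 had both marks, as did CG43980, Myo31DF, qua and Hil. The sources used here do not say how sites were assigned. A stage of peak expression was entered for 5 of the 14 lower genes, and 3 of these entries named the 2 d pupa, as did 59 of the 86 entered for all lower genes. Entry was uneven, so these shares are rough. Myo31DF and Frl had no stage for RNAi, but 12h prepupa and 12h prepupa-1d pupa for overexpression. Among the 13 higher genes in overexpression, 9 had a stage, 2 of them the 2 d pupa (mwh and betaTub60D), against 57 of the 337 entered for all higher genes.

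All 31 genes are protein coding in the Ensembl annotation. By chromosome arm, 9 lie on 3L, 8 on 2R, 6 on X, 4 on 2L, 3 on 3R and 1 on chromosome 4. Their exons total 0.786 kb in Arpc3B to 18.4 kb in CAP, which has 28 annotated transcripts. Exon bases were shared with another gene in 15 of the 31, and in 13 of these with a gene on the opposite strand. Of the falling genes, Frl (dm6 3L, 14053215 to 14071583, 13.7% of exon bases), Myo31DF (2L, 10491814 to 10506779, 11.1%) and qua (2L, 17486806 to 17497208, 5.22%) each overlap an annotated antisense RNA. The library kit keeps strand, but the sources used here do not say whether the counting used it, so reads of these genes and their antisense partners may not be separable. None of the 3 antisense RNAs was in the tables.

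Lists of 215 known genes of the fly cytoskeleton were searched for other entries. Of these, 5 were listed for RNAi, all lower, and 3 of the 5 are among the 31 genes (qua, Frl and Myo31DF). For overexpression 13 were listed, 7 higher and 6 lower, and 8 of them are among the 31. Of all listed genes, 50.7% were lower for RNAi and 72.4% were higher for overexpression. Unlisted genes have no values here, so the share of all genes that was listed is not known. No gene of the lists of actins and actin assembly or of septins and intermediate filament proteins was listed in either comparison. The actin assembly list does not hold Arpc3B, the Arp2/3 subunit gene that was listed as 4.52-fold higher in overexpression. Of the list genes outside the 31, both listed for RNAi were lower, and of the 5 listed for overexpression 3 were higher and 2 lower.

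Markers of other cells were listed for overexpression in both directions. Of 14 hemocyte markers 4 were listed, all higher, with a summed level of 224 to 317 normalized counts in control and 937 to 1528 in overexpression. Of 10 glial markers 3 were listed, all higher, at 4770 to 5222 and 10912 to 13935. Of 7 tracheal markers 3 were listed, all lower, at 24851 to 39496 and 8318 to 9649. They were serp and verm, labelled by the authors as enzyme, and Gasp, labelled as cuticle. As trh and btl had no entry, this sum does not stand for tracheal RNA. Of 14 neuronal markers 4 were listed, 3 lower and 1 higher, at 1585 to 2824 and 718 to 1384. The photoreceptor list had 4 higher and 4 lower of 15, at 15732 to 20086 and 64002 to 75671, and the cone and pigment cell list 2 higher and 1 lower of 14, at 19346 to 22017 and 44432 to 59880. The rise of each of these sums came mostly from 1 gene. Arr2 of the photoreceptor list went from a mean of 3458 to 54505 normalized counts, and Pu of the other list from 536 to 33029. The sums therefore do not stand for the other markers, of which eys, inaD, prom, salm and cd were lower. Of 16 ciliated sensory neuron markers 1 was higher and 1 lower. The part of these cells in the cytoskeletal values was not tested.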

How the data were processed

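Per the labels' protocols, each of the 9 stranded mRNA libraries took 250 ng of total RNA. Per the submitters' processing notes, the build was dm6 and the tools included Subread 1.6.3, STAR 2.6.1d, DESeq2, bedtools 2.26.0 and Picard 2.18.20. What each did, and with which settings, is not stated. The authors deposited 4 tables that hold only genes past their thresholds, with a normalized count per library (a signal scaled by 1 factor per library), a log2 fold change, an adjusted p-value and text labels. The deposited log2 values were turned around so that positive means above control. Total depth is unknown. Over the 4 tables, 100% of the low values (up to 200 steps) were whole multiples of 1 step per library within 0.05 reads, so reads could be recovered.

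Folds are ratios of group means without a pseudocount, and SDs hold counting error and the spread between samples. Overexpression was compared with RNAi with limma 3.58.1 in R 4.3.3 on log2(normalized count + 1) over the 179 genes with 9 libraries, with Benjamini-Hochberg adjustment. The same fit was run for each altered group against control on the listed genes. It called 15 of 15 and 21 of 21 cytoskeletal genes, and 100.0% of all listed genes in both, and adds nothing to the listing. Fits were tested on simulated data. Alternatives were other pseudocounts (0.5 and 5), a mean of at least 20 normalized counts, edgeR 4.0.16 and DESeq2 1.42.0 on recovered reads, a replicate block, and leaving out each library. For RNAi and overexpression, deviations of same-numbered libraries from their group means correlated at 0.28, 0.55 and 0.18 over the 179 genes. The replicate block was therefore run as an alternative, and the limma values given in the Results come from the fit without it. A pairing by number comes from the data, not from a label.

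Positions of genes were read from Ensembl's BDGP6.54 annotation, which has dm6 coordinates. Of the 31 genes, 30 were matched by identifier and betaTub60D by symbol; 1 altered symbol (Myo31DF) was restored by identifier. The genes, lists and tests were chosen with earlier results of these data known. By the naming rule, all 31 genes could be named, with Blimp-1 and listed genes of the lists; values per library went to the 5 genes listed in both comparisons and up to 6 more per table by size of change. Further genes were given per library after their values were seen, to describe each role. Some entries of the lists are not reported here.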

Additional observations from a re-analysis of the deposited data

How the results depend on the processing

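The counts of cytoskeletal genes by direction (14 and 1 in RNAi, 8 and 13 in overexpression) kept within 1.5 times of their value under the alternatives run. With labels from the comparison's own tables, 11 rather than 13 were higher in overexpression, and a mean of at least 20 normalized counts left 7 of the 8 lower genes. The 36 log2 ratios against control kept their direction, and moved by less than 1 SD, in 252 of 252 recomputed values. Because the groups of listed cytoskeletal genes did not overlap, leaving out a library or taking medians could not reverse a direction. With 3 libraries per group a move of 1 SD was hardly possible either, so this count is no measure of robustness. For overexpression against RNAi, where CG2157 and CG5104 had to differ by their listing, qua was called and Frl and Myo31DF were not under each alternative. With the replicate block the adjusted p was 0.00284 for qua, 0.206 for Frl and 0.402 for Myo31DF, and 120 rather than 114 of all 179 genes were called. The adjusted p of qua ranged from 0.00078 to 0.0295. Without overexpression replicate 2 the log2 difference of Myo31DF turned from -0.22 to 0.048 (adjusted p 0.855), with the cause not tested, and leaving out 1 library gave -0.388 to 0.048; over the alternatives its adjusted p ran from 0.283 to 0.855. From 105 to 120 of the 179 genes were called over all alternatives. Against control, same-numbered libraries did not deviate together in each pair (correlations of 0.33, 0.08 and 0.05 for RNAi and 0.42, 0.21 and -0.00 for overexpression), and the replicate block still called 15 and 21 genes. Libraries with different numbers reached 0.24 (control 3 with RNAi 2) and 0.21 (control 3 with overexpression 2). No other scaling was tried, since all genes in the tables were selected as changed. Depth limits the folds of CG13502, Kif3C, Arpc3B, Nuf2 and TpnC25D, each with 16 or fewer reads in at least 1 library.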
